A study of Mus musculus with 6 samples.

Results

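A ribosome is built in the nucleolus, where a long precursor of the ribosomal RNAs is cut, modified and folded onto ribosomal proteins by assembly factors that leave the particle before it is used. One set of factors, the small subunit processome and its followers, releases the 18S rRNA of the 40S subunit, and another set matures the 5.8S and 28S rRNAs of the 60S subunit. The RNA exosome takes part in this pathway, since it trims the 3' end of the 5.8S rRNA and degrades the spacers that are cut out. The 46 mouse genes described here encode such factors: 26 act on the small subunit, 17 on the large subunit, and Ncl, Npm1 and Nolc1 are abundant nucleolar proteins that serve both or act more generally. They were chosen by name, as every probe whose gene name in the files is that of a member, out of 34950 gene names on the array. All 46 were on the array, with 67 probes, and 45 were measured, which means that the scanner software called a probe well above background on every array of shExosc8, of shControl, or of both. Utp18, a processome subunit, was not measured: its single probe was well above background on 0 of 6 arrays.

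Cells enriched as erythroid progenitors from E-14.5 mouse fetal liver were infected with retrovirus that carried a short hairpin RNA and cultured for 3 days. The hairpin was directed against Exosc8, a core subunit of the exosome, in 3 samples (shExosc8) and against luciferase, which mouse cells lack, in 3 samples (shControl). Cells of both groups were spun with the virus in polybrene and grown in medium with dexamethasone, erythropoietin and kit ligand, and RNA came from bulk cells. Genotype, strain, the number of hairpin sequences and any selection of infected cells are not given in the sources used here, and neither is the origin of the replicates (animals, litters or cultures). The p-values therefore reflect no more than how these 6 samples vary, and that variation may be technical.

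RNA of each sample was read on a one-colour array. The share of the 59305 non-control spots that exceeded background clearly was 67.3% for shControl replicate 2 and 43.1% to 49.3% for the other 5 arrays. Row 2 of the slide held shExosc8 and row 1 held shControl, and a row effect cannot be told apart from the hairpin. Exosc8 had a normalised signal of 7158, 7080.1 and 10169 on the shExosc8 arrays, against 17440.0, 17323 and 18394 on the shControl arrays (log2 fold change -1.14 ± 0.16, SE, n = 3 per group, adjusted p = 0.00554). All 12 erythroid markers looked at, among them Klf1 and Alas2, were well above background on all 6 arrays, and 5 rose and Epor fell. A rise or fall means an adjusted p under 0.05 in limma, by which 16% of all 18228 genes rose and 13.8% fell. Markers of other cells moved with the groups: all 14 megakaryocyte markers rose, with a summed signal of 339300 to 482100 in shExosc8 and 36810 to 53530 in shControl. Likewise 12 of 13 measured neutrophil and monocyte markers rose (summed signal 304300 to 384700 in shExosc8, 123000 to 142200 in shControl), as did 4 of 6 measured mast cell and basophil markers (16610 to 24820 in shExosc8, 5450 to 8581 in shControl). The sums for hepatocyte markers were 3855 to 4905 in shExosc8 and 2442 to 2867 in shControl, and 4 of 8 measured markers rose. Those for macrophage markers were 3566 to 5264 in shExosc8 and 2066 to 2746 in shControl, and 3 of 5 measured markers rose. Of the 13 hepatocyte markers on the array, Alb, Apoa1, Ttr, Fga and Fgg did not pass the filter on dim probes, and of the 12 macrophage markers Mrc1, C1qa, C1qc, Vcam1, Cd163, Mertk and Timd4 did not. The basophil and mast cell markers Ms4a2, Fcer1a and Mcpt8 and the neutrophil marker Ly6g did not pass it either. The part of this change in cell markers in the results below was not tested, and in bulk RNA fewer cells of a type and less RNA per cell cannot be told apart.

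The sequences below show what the array measured and what lies at the start of these genes. The first 3 are RefSeq promoter windows on GRCm38.p6, from 250 bases before to 50 bases after the start, printed 5' to 3' on the strand of the gene. Utp20 and Tsr1 are the members that fell and have the E-box CACGTG, a site bound by Myc and related factors, in this window, and Nop2 has one and did not pass the test. The E-box is in capitals and starts at base 38 after the start in Utp20, at base 25 in Tsr1 and 60 bases before the start in Nop2.
Utp20 promoter, chr10:88826765-88827064, minus strand: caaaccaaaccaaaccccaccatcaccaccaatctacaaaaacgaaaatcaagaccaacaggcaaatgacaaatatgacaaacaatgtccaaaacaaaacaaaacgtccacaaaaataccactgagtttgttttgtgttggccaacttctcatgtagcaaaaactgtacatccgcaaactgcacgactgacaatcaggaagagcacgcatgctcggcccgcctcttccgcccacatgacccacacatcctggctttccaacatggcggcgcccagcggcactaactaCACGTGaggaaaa
Tsr1 promoter, chr11:74897830-74898129, plus strand: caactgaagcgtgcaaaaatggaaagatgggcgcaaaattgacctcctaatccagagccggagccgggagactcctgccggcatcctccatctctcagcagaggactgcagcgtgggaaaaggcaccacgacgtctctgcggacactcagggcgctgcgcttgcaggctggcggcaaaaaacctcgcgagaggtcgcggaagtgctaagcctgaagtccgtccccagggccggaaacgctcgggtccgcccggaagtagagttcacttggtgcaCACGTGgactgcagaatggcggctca
Nop2 promoter, chr6:125131633-125131932, plus strand: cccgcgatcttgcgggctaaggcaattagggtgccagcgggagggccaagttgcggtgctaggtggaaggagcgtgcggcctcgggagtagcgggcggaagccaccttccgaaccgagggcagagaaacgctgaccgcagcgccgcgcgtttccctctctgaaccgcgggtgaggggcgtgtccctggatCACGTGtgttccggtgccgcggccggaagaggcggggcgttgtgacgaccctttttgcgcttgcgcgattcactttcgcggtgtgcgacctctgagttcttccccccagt

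Windows of 300 bases were found for 39 of the 46 members, and motifs were searched on both strands and counted once per gene. The E-box was present for 8 of 39 members (20.5%), Imp4, Ltv1, Nop2, Pes1, Tsr1, Utp18, Utp20 and Wdr43, against 11.6% of the 10145 tested genes with a window and 8.09% of all 27025 genes in the table. It was found for 6 of 21 small subunit factors and 2 of 16 large subunit factors. Of 16 members that fell and have a window 2 carried it (12.5%), against 13.3% of all genes that fell. The ETS family motif CCGGAAG was found for 14 of 39 members (35.9%), against 19.7% of tested genes. The erythroid GATA motif AGATAA was found for 1 member, Gtpbp4 (2.56%), against 8.65% of tested genes. The CCAAT box was present for 38.5% of members and 43.3% of tested genes. These shares describe letters in the windows and were not tested.

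The next sequences are array probes of 60 bases, in lower case throughout, with places on mm9. They are shown because Utp20 had the largest fall of a member, because the probes of Utp14a gave different values, and because the Ncl probe printed did not pass the test while a second one did.
Utp20 probe, chr10:88209709-88209768, minus strand: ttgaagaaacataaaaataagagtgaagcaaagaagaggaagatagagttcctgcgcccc
Utp14a probe near the start of the transcript, chrX:45616154-45616213, plus strand: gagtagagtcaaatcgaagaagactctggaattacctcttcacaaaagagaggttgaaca
Utp14a probe further along, chrX:45628267-45628326, plus strand: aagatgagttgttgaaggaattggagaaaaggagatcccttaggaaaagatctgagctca
Ncl brighter probe, chr1:88247953-88248012, minus strand: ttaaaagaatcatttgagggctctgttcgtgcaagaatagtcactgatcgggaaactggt

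Transcripts of ribosome assembly factors were lower in shExosc8 than in shControl cells almost throughout the set. Of 45 measured members, 44 had a log2 fold change below 0, 17 fell with an adjusted p under 0.05, and 0 rose. Over all 18228 genes tested, 13.8% fell and 16% rose by the same rule, 29.8% together, and 10037 of them had a value below 0. The median log2 fold change of the members was -0.46, with the middle of the distribution from -0.55 to -0.35, and the median over all genes was -0.06. The members thus stood at -0.40 relative to all genes, also with the percentile taken over all probes and with no scaling, which moved both medians alike. The distance was smaller from genes of similar brightness: the 4337 genes whose control signal lay between the lower and upper quartiles of the members' control signal had a median of -0.19, 18.9% of them fell, 68.2% were below 0, and 1826 had all shExosc8 arrays below all shControl arrays. The typical member stood at 72.7% of its control level, and the range over members was 58.8% (Utp20) to 108.7% (Utp6). All 3 shExosc8 arrays lay below all 3 shControl arrays for 32 of 45 members, against 28.4% of all genes. An unadjusted p under 0.05 in limma was found for 30 of 45 members, all of them lower. Of all 18228 genes 4299 were lower at that threshold, and 8208 passed it in either direction.

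The test was limma's moderated test across all genes with Benjamini-Hochberg adjustment over all of them, and genes of a pathway are not independent of each other. The number of calls depended on single arrays. It was 0 of 45 without shExosc8 replicate 1 or without shControl replicate 1, and 4 without shExosc8 replicate 2. It was 38 without shExosc8 replicate 3, and 2 without shControl replicate 2 or 3. In each of these fits 44 of 45 stayed below 0. Calls over all genes moved as well: 3.81%, 6.25% and 23.5% fell without shExosc8 replicate 1, 2 and 3 in turn. Without shControl replicate 1, 2 and 3 in turn, 3.99%, 5.04% and 5.31% of all genes fell. A block for the slide column left 0 members called (median -0.38, 1 with an unadjusted p under 0.05 in limma). Columns 1 and 4 hold 1 array each, so only columns 2 and 3 compare the groups in this fit. It therefore had little power to call any gene, and 0.225% of all genes fell by it. Within column 2, which holds shExosc8 replicate 2 and shControl replicate 1, the median difference was -0.67 and 44 of 45 members were below 0, and within column 3 (shExosc8 replicate 3, shControl replicate 2) it was -0.12 with 34 of 45 below 0. With no filter on dim probes limma called 0 members, with 24 at an unadjusted p under 0.05, and 1.05% of all 34950 names fell.

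**Figure D1:**
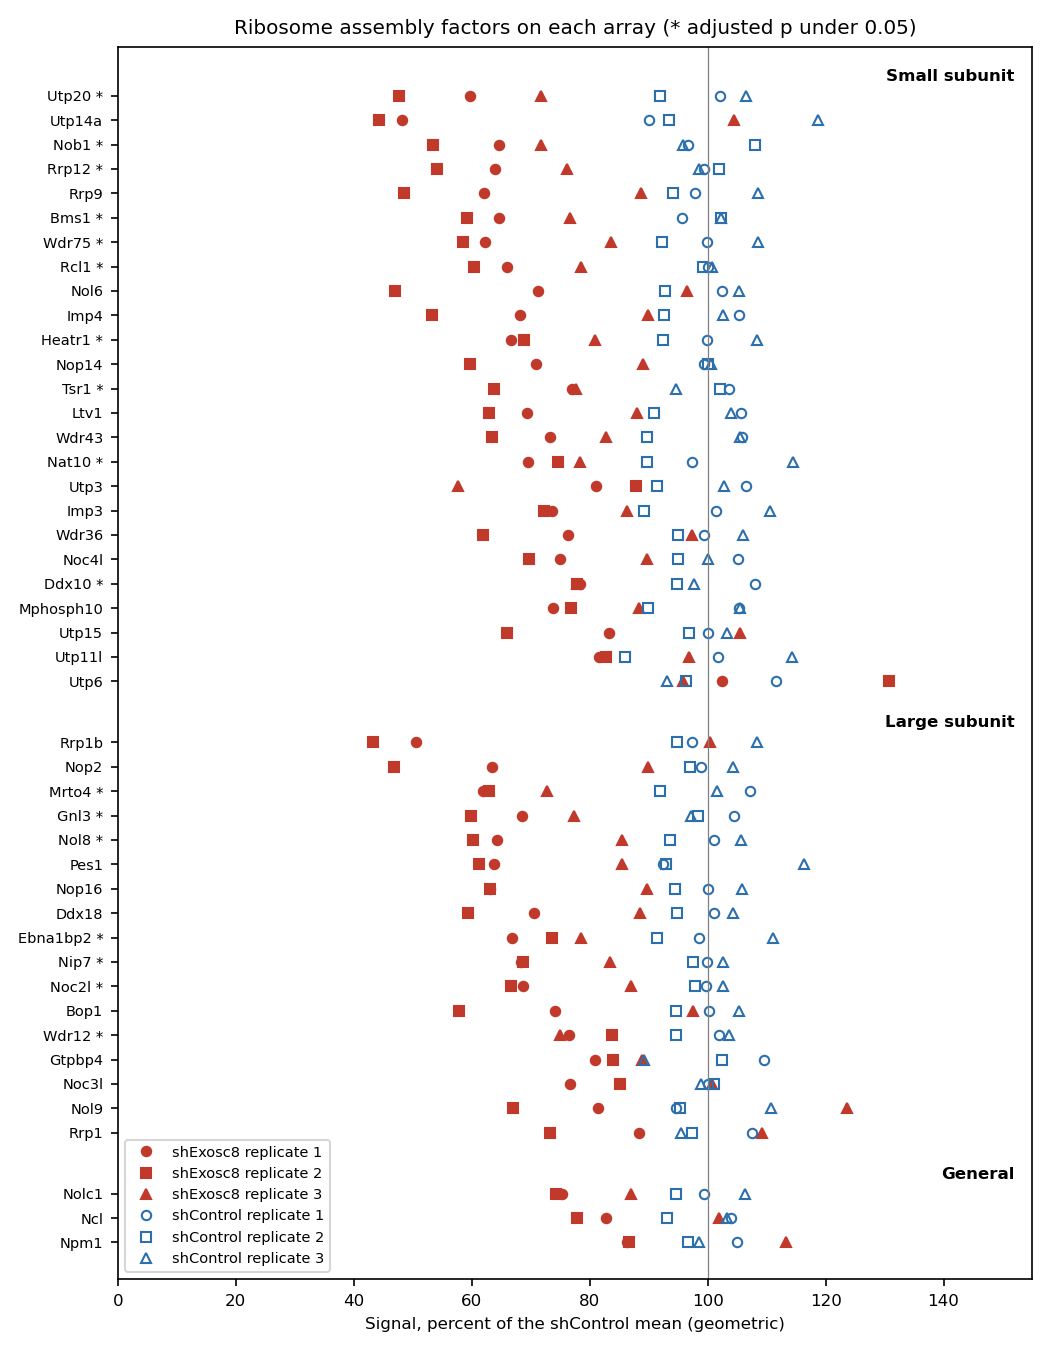
Normalised signal of the 45 measured factors on each array, as a percent of the geometric mean of the 3 shControl arrays (x axis), with filled red marks for shExosc8 and open blue marks for shControl. Red circles and squares lie left of every blue mark for 44 of 45 factors, and red triangles (replicate 3) lie nearer to the controls. An asterisk marks an adjusted p under 0.05.

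The factors of the small subunit processome bind the nascent precursor first. The t-UTP module joins the leading spacer and is also needed for rRNA transcription. Heatr1 had a normalised signal of 21632, 22395 and 26269 on the shExosc8 arrays, against 32472, 30006 and 35179 on the shControl arrays. Wdr75 had 8000.5, 7526 and 10732 on the shExosc8 arrays, against 12829, 11846 and 13954 on the shControl arrays. Neither gene's groups overlapped, and both fell, Heatr1 by 0.48 ± 0.12 on the log2 scale (SE, adjusted p = 0.0329) and Wdr75 by 0.57 ± 0.16 (adjusted p = 0.043). Wdr43 missed the threshold at -0.46 ± 0.14 (adjusted p = 0.0506) with groups that did not overlap, and Utp15 was at -0.26 ± 0.18 with replicate 3 at 105% of the control mean.

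The UTP-B module follows, with 0 of 2 measured members called. Wdr36 stood at 77.2% of control with overlapping groups (adjusted p = 0.151). Utp6 was the only member above 0. Its signal was 105873, 135217 and 99152 on the shExosc8 arrays, against 115354, 99557 and 96299.6 on the shControl arrays. The groups overlapped, and the log2 fold change was 0.12 ± 0.15 (adjusted p = 0.571). Scaling by the percentile over all probes gave -0.026, and whether the probe measures Utp6 alone was not tested.

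Factors tied to the U3 RNA, which pairs with the precursor and guides its folding, were all below their controls on every shExosc8 array, and none passed the threshold. The U3 binding protein gene Rrp9 was at -0.63 ± 0.23 (adjusted p = 0.0759), Imp4 at -0.54 ± 0.20 (adjusted p = 0.0841), Imp3 at -0.37 ± 0.13 (adjusted p = 0.0727) and Mphosph10 at -0.33 ± 0.12 (adjusted p = 0.0868). Rrp9 stood at 62.1%, 48.5% and 88.8% of the control mean on replicates 1, 2 and 3.

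Among the other processome factors 5 of 11 fell. Utp20, a very large scaffold protein, had the lowest level relative to control of any member, with 1089.9, 871 and 1309.9 on the shExosc8 arrays, against 1866, 1679.8 and 1946 on the shControl arrays. Every shExosc8 array was below every control, and it fell by 0.76 ± 0.17 on the log2 scale (adjusted p = 0.0209). The GTPase gene Bms1 had 2133, 1952 and 2531 on the shExosc8 arrays, against 3155, 3373 and 3374 on the shControl arrays, and its partner Rcl1 had 2969, 2714 and 3531 on the shExosc8 arrays, against 4498, 4463 and 4536 on the shControl arrays. Neither gene overlapped with its controls: Bms1 fell by 0.59 ± 0.13 (adjusted p = 0.0192) and Rcl1 by 0.56 ± 0.13 (adjusted p = 0.0215). Nat10, the acetyltransferase of 18S rRNA, had 8989, 9649 and 10147 on the shExosc8 arrays, against 12596, 11609 and 14804 on the shControl arrays and fell by 0.43 ± 0.13 (adjusted p = 0.0466). The helicase gene Ddx10 had 1449, 1439 and 1440.0 on the shExosc8 arrays, against 1998, 1751 and 1805 on the shControl arrays. Its 3 shExosc8 values were nearly equal, and it fell by 0.36 ± 0.10 (adjusted p = 0.0401).

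The remaining processome factors did not pass. Nop14 (-0.47 ± 0.16, adjusted p = 0.0683) and its partner Noc4l (-0.36 ± 0.13, adjusted p = 0.0746) had groups that did not overlap. Utp3 (-0.43 ± 0.18, adjusted p = 0.116) had its lowest value in shExosc8 replicate 3, at 81.1%, 87.8% and 57.6% of control on replicates 1, 2 and 3, the reverse of most members. Utp14a, in yeast the activator of a helicase that frees U3, stood at 48.2%, 44.2% and 104% of control, and Nol6 at 71.3%, 47% and 96.5%. Both were low on replicates 1 and 2 and within the control range on replicate 3, with adjusted p of 0.148 and 0.151. Utp11l (now Utp11) was at -0.20 ± 0.14 (adjusted p = 0.307).

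**Figure D2:**
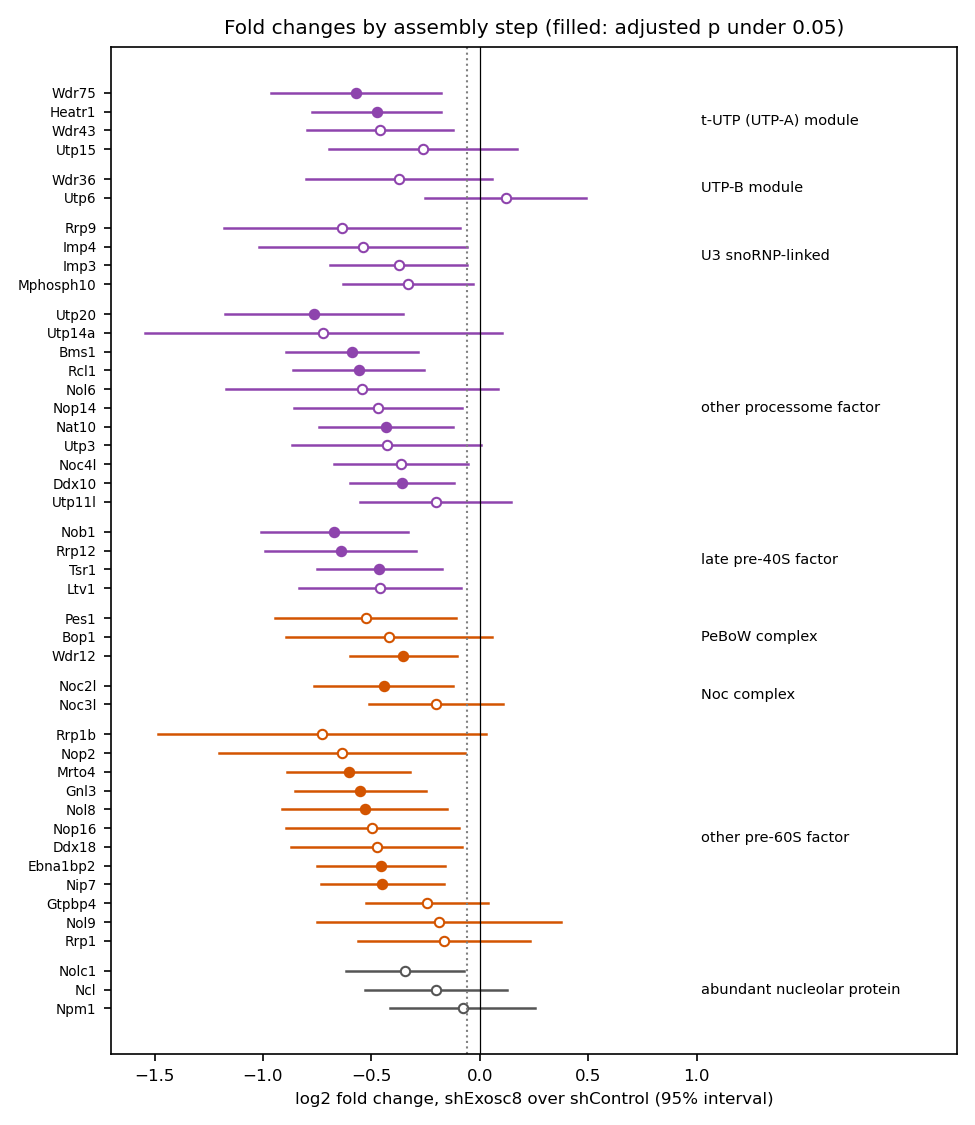
Log2 fold change of each factor, shExosc8 over shControl, with its 95% interval (x axis), grouped by assembly step; purple marks are small subunit factors, orange large subunit factors and grey the general ones. Filled marks have an adjusted p under 0.05, the dotted line is the median of all genes (-0.06), and 44 of 45 marks lie left of 0.

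Of the late factors that ride on the pre-40S particle 3 of 4 fell, against 13.8% of all genes. With so few genes per step, the steps were not ranked. Nob1, the nuclease that cuts the 3' end of the 18S rRNA, had 1781, 1474 and 1979 on the shExosc8 arrays, against 2663, 2979 and 2641 on the shControl arrays. It was lower on all 3 shExosc8 arrays and fell by 0.67 ± 0.14 (adjusted p = 0.0174). Rrp12, an export factor, had 721, 610.3 and 858 on the shExosc8 arrays, against 1122, 1151 and 1112 on the shControl arrays and fell by 0.64 ± 0.14 (adjusted p = 0.0215). Tsr1, which resembles a translation GTPase, had 3744, 3097 and 3778 on the shExosc8 arrays, against 5034, 4960.2 and 4600.1 on the shControl arrays. Its groups did not overlap and it fell by 0.46 ± 0.12 (adjusted p = 0.0326), while Ltv1 was at -0.46 ± 0.15 (adjusted p = 0.0659).

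Large subunit factors showed the same picture, with 7 of 17 fallen and 17 of 17 below 0. In the PeBoW complex, which is needed to process the spacer next to the 5.8S rRNA, Wdr12 had 15548, 17025 and 15218 on the shExosc8 arrays, against 20728, 19238 and 21037 on the shControl arrays. It fell by 0.35 ± 0.10 (adjusted p = 0.0445) without overlap. Pes1 (-0.53 ± 0.17, adjusted p = 0.062) and Bop1 (-0.42 ± 0.20, adjusted p = 0.147) did not pass. Noc2l, of a complex that accompanies pre-60S particles, had 8124, 7884 and 10309.6 on the shExosc8 arrays, against 11805, 11585 and 12139 on the shControl arrays and fell by 0.44 ± 0.13 (adjusted p = 0.0486). Noc3l was at -0.20 ± 0.13 (adjusted p = 0.256), with replicate 3 at the control level.

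Among the other pre-60S factors 5 of 12 fell. Mrto4, whose yeast counterpart holds the place of the stalk protein, had 12820.4, 13016 and 15044 on the shExosc8 arrays, against 22157, 18999.8 and 21008 on the shControl arrays. It fell by 0.61 ± 0.12 (adjusted p = 0.014), the smallest p of all members. The nucleostemin gene Gnl3, a GTPase of stem and progenitor cells, had 7084, 6191 and 7997 on the shExosc8 arrays, against 10800.5, 10168 and 10039.5 on the shControl arrays and fell by 0.55 ± 0.13 (adjusted p = 0.0224). Nol8 had 796, 746 and 1057 on the shExosc8 arrays, against 1251, 1158 and 1308 on the shControl arrays and fell by 0.53 ± 0.16 (adjusted p = 0.047). For these 3 genes every shExosc8 array lay below every control.

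Ebna1bp2 had 30324, 33397 and 35652 on the shExosc8 arrays, against 44713, 41481 and 50373 on the shControl arrays and fell by 0.46 ± 0.12 (adjusted p = 0.0356). Nip7, a small RNA-binding factor, had 15933, 15981 and 19446 on the shExosc8 arrays, against 23266, 22716 and 23887 on the shControl arrays and fell by 0.45 ± 0.12 (adjusted p = 0.0334). Neither gene's groups overlapped. The rRNA methyltransferase gene Nop2 (-0.64 ± 0.23, adjusted p = 0.0841), Nop16 (-0.50 ± 0.17, adjusted p = 0.0652) and the helicase gene Ddx18 (-0.48 ± 0.16, adjusted p = 0.0692) had groups without overlap and did not pass. Rrp1b stood at 50.5%, 43.3% and 100% of control on replicates 1, 2 and 3 and did not pass (adjusted p = 0.121). Its paralog Rrp1 was at -0.17 ± 0.16, the GTPase gene Gtpbp4 at -0.24 ± 0.12, and Nol9, the kinase that acts on the cut spacer beside the 5.8S rRNA, at -0.19 ± 0.23 with replicate 3 at 124% of control.

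The abundant nucleolar proteins had a median of -0.20, and none of the 3 passed the test. Nolc1, a chaperone of small nucleolar particles, was at -0.35 ± 0.11 (adjusted p = 0.0605) with groups that did not overlap. Nucleolin (Ncl) had 77558, 72936 and 95590.2 on the shExosc8 arrays, against 97452, 87247 and 96865 on the shControl arrays. Nucleophosmin (Npm1) had 165466, 166235 and 217224 on the shExosc8 arrays, against 201224, 185448 and 189029.9 on the shControl arrays. In both, replicates 1 and 2 were below the controls and replicate 3 was not, and the log2 fold changes were -0.20 ± 0.14 (adjusted p = 0.282) and -0.08 ± 0.14 (adjusted p = 0.679).

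Small and large subunit factors had the same median shift to 2 decimals. The small subunit factors had a median log2 fold change of -0.46 (10 of 25 fallen, 40%; range -0.76 to 0.12) and the large subunit factors -0.46 (7 of 17 fallen, 41.2%; range -0.73 to -0.17), against 13.8% of all genes fallen. As a share of control the class medians were 72.5% and 72.8%. On shExosc8 replicates 1, 2 and 3 the medians were -0.50, -0.67 and -0.21 for small subunit factors, and -0.54, -0.67 and -0.17 for large subunit factors. The difference between the classes was smaller than that between arrays of 1 group, and it was not tested.

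The factors shifted by different amounts on the 3 shExosc8 arrays. The median shift of all 45 members from the control mean was -0.50, -0.66 and -0.18 on shExosc8 replicates 1, 2 and 3, and 0.00, -0.08 and 0.06 on shControl replicates 1, 2 and 3. Replicates 1 and 2 were below every control for 44 of 45 members, the exception being Utp6, and replicate 3 for 32. For 41 of 45 members the highest shExosc8 value was that of replicate 3, and for 32 of 45 the lowest shControl value was that of replicate 2. Exosc8 itself stood at 40.4%, 40% and 57.4% of control on shExosc8 replicates 1, 2 and 3. The SD of the log2 signal over the 3 arrays was larger in shExosc8 than in shControl for 39 of 45 members, with medians of 0.22 and 0.10. The summed signal of the megakaryocyte markers was likewise lowest on replicate 3 among the shExosc8 arrays (339300, against 412300 and 482100 on replicates 1 and 2), and its part in these values was not tested.

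**Figure D3:**
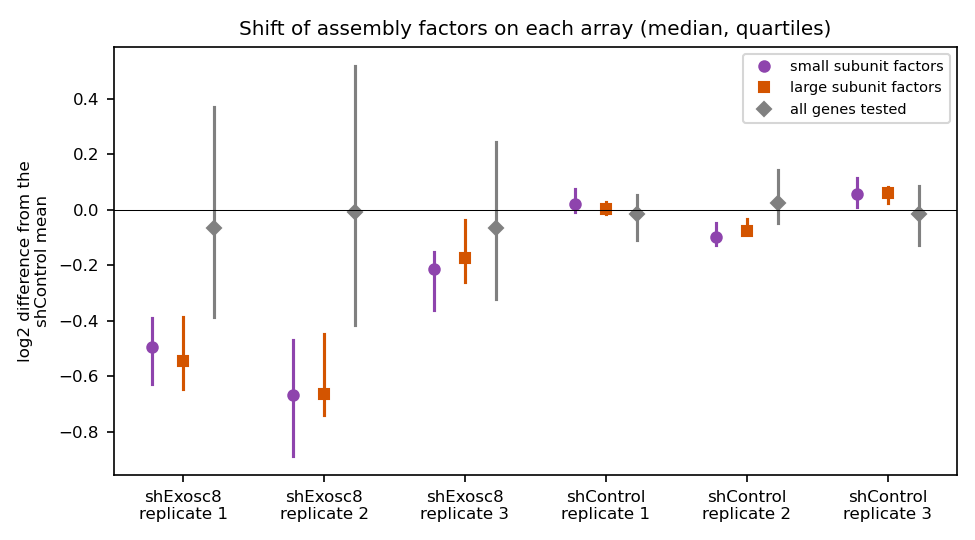
Median (mark) and quartiles (line) of the log2 difference from the shControl mean on each array (y axis), for 25 small subunit factors, 17 large subunit factors and all 18228 genes. The medians of both classes sit at -0.50 to -0.67 on shExosc8 replicates 1 and 2 and at -0.21 and -0.17 on replicate 3. The median of all genes, after scaling to a common percentile, stays within 0.07 of 0 on all 6 arrays. The quartiles of all genes are also nearest to 0 on replicate 3 among the shExosc8 arrays. They are -0.39 and 0.37 on replicate 1, -0.42 and 0.52 on replicate 2, and -0.32 and 0.24 on replicate 3.

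Several members have more than 1 probe, which gives a second look at the same transcript in the same RNA. Some of these probes read nearly the same bases. Those of Ddx18 start at bases 2129 and 2131 of the transcript, and those of Tsr1 at 2955 and 2951. Of 64 measured probes, each tested on its own, 22 fell and 0 rose, against 13.1% fallen over all 24836 measured probes. Nat10, Noc2l and Nol8, with 1 probe each, fell in the test over genes. In the limma test over probes they missed the threshold (adjusted p = 0.0506, 0.0526 and 0.0503). For 15 members with several measured probes, all probes fell for 2, some fell for 8 and none fell for 5. Ebna1bp2 had 3 probes that all fell, at -0.46, -0.62 and -0.80, and both Mrto4 probes fell, at -0.61 and -0.55. One of the Mrto4 probes is placed on chromosome 12 and the gene on chromosome 4, and the brighter Wdr12 probe on chromosome 7 and the gene on chromosome 1, and whether these probes read the gene alone was not tested. The other Wdr12 probe, on chromosome 1, was at -0.54 and did not pass (adjusted p = 0.0969 over probes).

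The probes of Utp14a, printed above, differed in both level and spread. The probe near the start of its transcript had 239.6, 237 and 217 on the shExosc8 arrays, against 472, 449.5 and 532 on the shControl arrays, with no overlap, and fell by 1.06 on the log2 scale (adjusted p = 0.00247 over probes). The probe further along had 579, 531 and 1254 on the shExosc8 arrays, against 1082, 1122 and 1426 on the shControl arrays, where shExosc8 replicate 3 reached the control range, and its value was -0.72 (adjusted p = 0.151 over probes).

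For Ncl the second probe lies far along the transcript record, at chr1:88241516-88241575, and had 1283, 1077 and 1555 on the shExosc8 arrays, against 2189.8, 1914 and 2368 on the shControl arrays. It fell by 0.74 (adjusted p = 0.0239 over probes), while the brighter Ncl probe printed above did not pass. Nolc1 likewise had a second probe, further along, that fell by 0.75 (adjusted p = 0.0351 over probes). The second probe of Nip7, at chr8:109584765-109584824, had 867, 846 and 813 on the shExosc8 arrays, against 857, 919 and 760.4 on the shControl arrays. Its groups overlapped fully and its log2 fold change was -0.00, while the brighter probe at chr8:109582751-109582810 fell. The second probe of Pes1 fell (-0.52, adjusted p = 0.0418 over probes), as did that of Wdr43 (-0.53, adjusted p = 0.0188 over probes), so both genes had a called probe beside one that missed the threshold. The 5 probes of Npm1 were all below 0, from -0.25 to -0.06, and none passed. For Nol9 and Utp6 a second probe was well above background on 0 of 3 shExosc8 and 2 of 3 shControl arrays and was not measured.

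**Figure D4:**
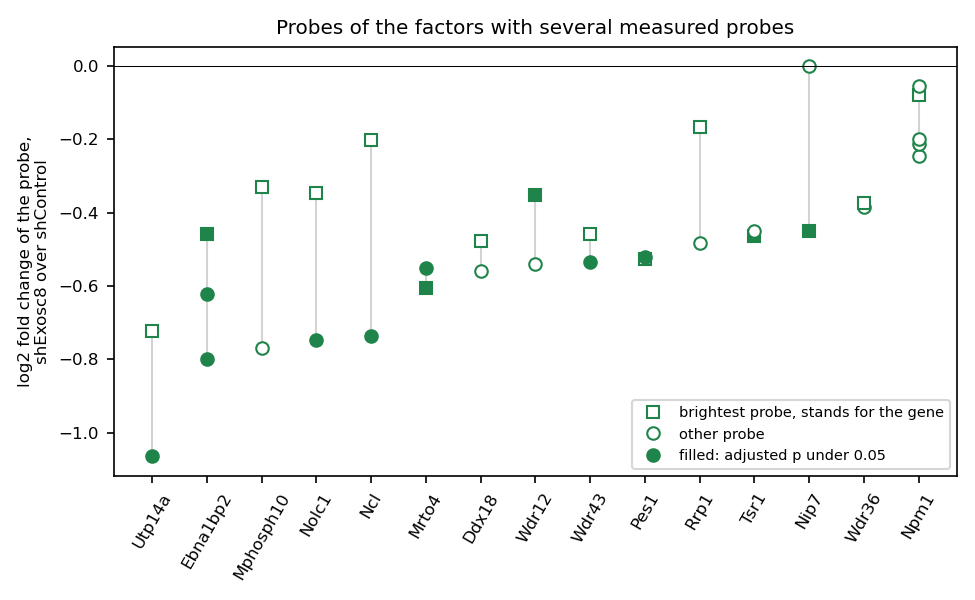
Log2 fold change of every measured probe, shExosc8 over shControl (y axis), for the 15 factors with several measured probes; squares stand for the gene in the main values, circles are its other probes, and filled marks have an adjusted p under 0.05 over all probes. All marks lie below 0, from -1.06 for a Utp14a probe to -0.00 for a Nip7 probe.

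Transcripts of assembly factors outside the member list were lower as well. Of 29 other small subunit factors measured, 12 fell and 0 rose (median -0.38), and of 44 other large subunit factors 21 fell and 0 rose (median -0.45), against 13.8% of all genes fallen. The rRNA dimethyltransferase gene Dimt1 fell by 0.66 ± 0.10 (adjusted p = 0.00601), Nom1 fell by 0.56 ± 0.10 (adjusted p = 0.0112) and Aatf fell by 0.54 ± 0.10 (adjusted p = 0.0123). Among large subunit factors Ccdc86 fell by 0.82 ± 0.13 (adjusted p = 0.00741), Ppan fell by 0.67 ± 0.11 (adjusted p = 0.00811) and Rrs1 fell by 0.82 ± 0.14 (adjusted p = 0.00981). Of 73 such factors only Nop9 had a value above 0, at 0.12 (adjusted p = 0.57).

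The factors that trim the 3' end of the 5.8S rRNA with the exosome included genes that fell and genes that did not pass. Mphosph6 had 2447, 2629 and 3453 on the shExosc8 arrays, against 5223, 4850.5 and 4801 on the shControl arrays. Dis3 had 6665, 7174 and 6644 on the shExosc8 arrays, against 8894, 8519 and 8472 on the shControl arrays. For both, every shExosc8 array lay below every control. Of 6 measured, the exosome cofactor gene Mphosph6 fell by 0.82 ± 0.15 (adjusted p = 0.0124) and the nuclease gene Dis3 fell by 0.34 ± 0.09 (adjusted p = 0.0406). The nuclease gene Isg20l2 (-0.38, adjusted p = 0.1), the helicase gene Mtrex (-0.24, adjusted p = 0.134), Exosc10 (-0.19, adjusted p = 0.257) and Eri1 (-0.06, adjusted p = 0.726) did not pass, and C1d was not measured. Of the 9 core exosome subunits 4 fell, Exosc8, which is the target of the hairpin, Exosc1 (-0.66), Exosc3 (-0.51) and Exosc7 (-0.41). By the same rule 13.8% of all genes fell. Exosc5 (-0.57) and Exosc6 (-0.57) missed the threshold, and so did Exosc4 (-0.12), with Exosc9 (0.02) and Exosc2 (0.33) above 0. For Exosc2 every shExosc8 array lay above every control, and it did not pass (adjusted p = 0.16). Its signal was the highest of the 9 core subunits, 500790.5 to 698637 in shExosc8 and 416649 to 489985 in shControl. Whether its probe reads Exosc2 alone was not tested.

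The genes whose signal followed the mean of the 45 members most closely over the 6 arrays were, by Pearson's r over 18183 other genes, Polr1e (0.9996), Dcakd (0.9992), Kat2a (0.9991), 0610040J01Rik (0.9985) and Ndufaf4 (0.9982). Polr1e encodes a subunit of RNA polymerase I, which transcribes the rRNA precursor, and Kat2a a histone acetyltransferase. Their log2 fold changes were -0.65 for Polr1e, -0.63 for Dcakd, -0.54 for Kat2a, -0.99 for 0610040J01Rik and -0.51 for Ndufaf4. The 6 arrays form 2 groups, so the coefficient includes the group difference, and it is given as a description. Members differed in how closely they followed their own mean: the lowest coefficients were those of Utp6 (-0.63), Utp3 (0.35), Npm1 (0.70), Wdr12 (0.73) and Gtpbp4 (0.73).

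In the authors' deposited table, 44 of the 45 members had a negative log2 fold change, with a median of -0.44, and all 45 had the same sign as in the fit here. By adjusted p the authors' deposited table calls 0 of the 45, and 0.508% of all its spots as lower. The lowest adjusted p of a member in the authors' deposited table was 0.0568, and 16 members had an unadjusted p under 0.05 there.

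**Figure D5:**
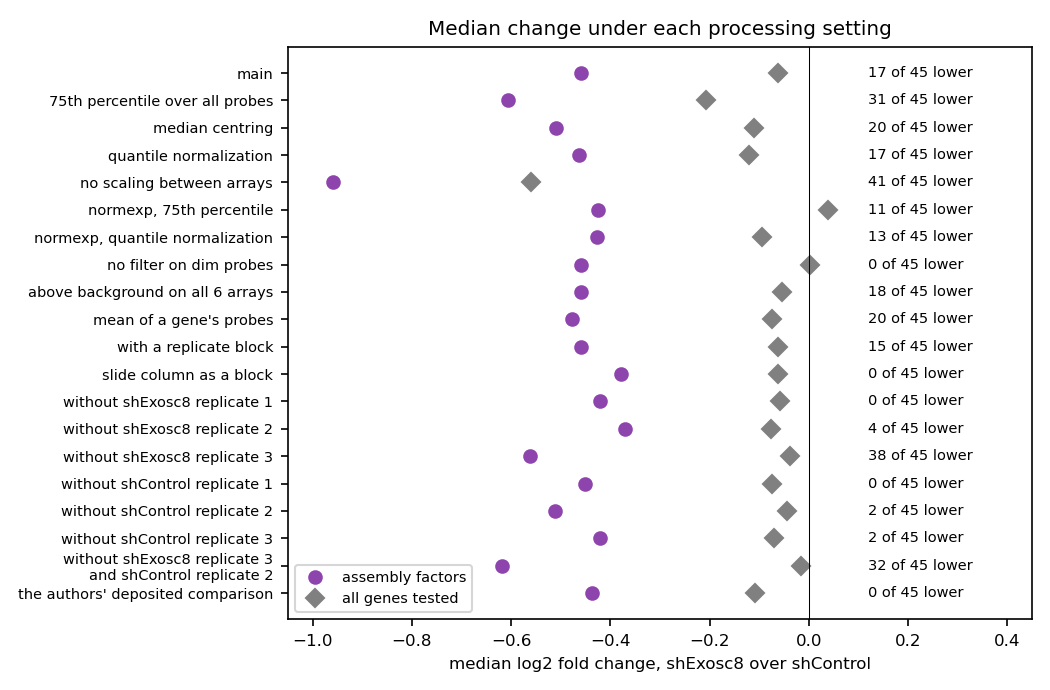
Median log2 fold change, shExosc8 over shControl (x axis), of the 45 assembly factors (circles) and of all genes tested (diamonds) under each processing setting, with the number of factors called lower at an adjusted p under 0.05. The circles lie left of the diamonds in all 20 settings drawn, while the number called runs from 0 to 41. Over all genes, the share called lower runs from 0.225% to 41.2%.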

How the data were processed

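RNA of 6 samples was labelled with Cy3 and hybridised to 6 one-colour arrays. Per the file headers, the deposited spot intensity values were written by version 10.7.3.1 of Agilent Feature Extraction, with a spatial background subtracted, detrending, and surrogates near background. The deposited table of the series holds the same intensity values, and the authors' log2 fold changes and p-values, for which the submitters' processing notes name limma. The sources used here do not give their normalization.

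Control spots (3671 of 62976) and spots flagged as non-uniform or outlying were left out, and spots of a probe were averaged on the log2 scale (55660 probes). Each array's 75th percentile over the 21615 probes well above background on all arrays was subtracted, since these were 38.8% of probes, and the mean of the 6 percentiles was added back. Normalised signal is 2 to the power of that value, in scanner units. Probes that every array of either group had well above background were kept (24836), and the brightest stood for its gene (18228 names). Names came from RefSeq through the accession for 27495 probes. limma 3.58.1 in R 4.3.3 (lmFit, eBayes, two-sided) gave folds, SE, 95% intervals and Benjamini-Hochberg adjusted p over all genes, called under 0.05. Tested on simulated data of 18228 genes, it called 40 of 100 true log2 changes of 1 and 1 of 100 true changes of 0.5. Of the smaller ones 63 had an unadjusted p under 0.05, and 1 false call was made. Only these genes were changed in the simulation, far fewer than the 5439 called in the data. The adjusted p depends on how many genes change, so these shares do not measure the sensitivity of the fit here. The number of arrays limits the precision.

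By the rule for named genes, signals per array are given for members called or opposite in sign to the median and for probes that disagree, all trimming and core exosome genes are named, other lists are named by smallest p, and the 5 genes most like the member mean are given. Ncl, Npm1, Nop9 and the percentages of uncalled members were added after their values were seen. Members, lists and tests were chosen with earlier results of these data known. Alternatives were other scalings and backgrounds, filters, probe rules, blocks, left-out arrays and the authors' comparison. All arrays came from 1 slide and 1 scan.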

Additional observations from a re-analysis of the deposited data

How the results depend on the processing

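The median log2 fold change of the 45 assembly factors was below 0 under all 19 alternatives, from -0.96 with no scaling between arrays to -0.37 without shExosc8 replicate 2. Scaling moved the median of all 18228 genes as well, from -0.06 to -0.21 with the percentile over all probes and to -0.56 with no scaling. Relative to that median the factors stood at -0.40 in each of these. This distance could not differ, because these scalings shift all genes of an array by the same amount. The share of rises among called genes was 53.7%, and 37.1%, 18%, 46.8%, 46.9% and 66.9% with the percentile over all probes, no scaling, median centring, quantile normalization and normexp with the percentile.

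The number of factors called lower was 17 (10 small subunit, 7 large subunit). It was 31 (19 and 11) with the percentile over all probes and 41 (24 and 15) with no scaling. It was 11 with normexp and the percentile (4 large subunit). Of all genes, 24.6%, 41.2% and 8.79% were called lower in these settings, in that order, against 13.8% in the main fit. The number of factors was 0 (0 and 0) with no filter on dim probes, with the slide column as a block, and in the authors' deposited comparison. There 1.05%, 0.225% and 1.18% of all genes were called lower, in that order. With no filter, 34950 names were tested. With arrays left out in turn the number of factors ran from 0 to 38 (small subunit 0 to 22, large subunit 0 to 15), and the median from -0.56 to -0.37. The share of all genes called lower ran from 3.81% to 23.5% in these fits. Leaving out both shExosc8 replicate 3 and shControl replicate 2, which was chosen after seeing the data, gave 32 factors (19 and 12). In that fit 17.3% of all genes were called lower. Genes called over all names were 5439, and 9167 with no scaling, 1815 with no filter, 537 with the slide column block, 1333 of the names in the authors' deposited table, and 2347 to 8328 with arrays left out. Same-numbered arrays' deviations from their group means correlated at 0.036, 0.219 and 0.303 for replicates 1, 2 and 3. For shExosc8 replicates 2 and 3 the same-numbered control was the best match, and for replicate 1 it was shControl replicate 2 (0.166). These values are mixed and do not settle whether the numbers pair the samples. The labels give no pairing, and the main fit used none. With a replicate block 15 factors and 5633 genes were called, and 13.5% of all genes were called lower. Where not stated by the alternative itself, the cause was not tested.

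Utp6 was at -0.026 with the percentile over all probes and -0.38 with no scaling, and with arrays left out ran from -0.013 (without shExosc8 replicate 2) to 0.21. Nol9 ran from -0.44 to 0.0047 (without shExosc8 replicate 2). No called factor changed sign under any alternative. Most calls were lost when arrays were left out. Mrto4 kept its call most often, for 4 of 6 arrays left out. Nob1 and Utp20 lost theirs for 3 of 6, Rrp12 for 4 of 6, and every other called factor for 5 of 6. The number of arrays, and signal near background for dim second probes, limit what can be called.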
